A study of Mus musculus with 8 samples.

Results

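The genes described here are the enzymes and cofactors that place, copy, remove and protect DNA methylation. They were listed by name, and they are Dnmt1, Uhrf1, Dnmt3a, Dnmt3b, Dnmt3l, Tet1, Tet2, Tet3, Zfp57 and Trim28, 10 of the 24980 genes in the count table. Of the 10, 9 passed the filter on low counts together with 17582 genes in all, and Dnmt3l did not pass.

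Mouse skeletal myogenic progenitors of 4 groups, with 2 biological replicates each, gave the 8 total RNA libraries. TF cells were sorted directly from teratomas, mixed-tissue tumors that grew from EGFP-labelled E14 embryonic stem cells placed in irradiated and cardiotoxin-injured tibialis anterior muscles of immunodeficient, dystrophin-deficient NSG-mdx4Cv mice. TE cells were teratoma-derived progenitors that had been cultured to passage 8. SF cells were endogenous satellite cells, which are the resident stem cells of adult muscle, without culture, and SE cells were their counterparts at passage 8. The sort of the teratoma cells kept α7-integrin+ VCAM-1+ cells without the endothelial antigen CD31 and the haematopoietic antigen CD45. The teratoma groups came from 1 embryonic stem cell line, so origin, cell line and host cannot be told apart in any comparison of teratoma-derived with satellite cells. The age and strain of the satellite cell donors were not given in the sources used here.

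DNA methylation at CG pairs is copied after each round of replication by Dnmt1, which Uhrf1 brings to half-methylated DNA. Dnmt3a and Dnmt3b place new methylation, Dnmt3l assists them in germ cells and early embryos, and the Tet enzymes oxidize methylcytosine so that it can be diluted or excised. Zfp57 binds the methylated copy of imprinted control regions and recruits Trim28, the corepressor of the KRAB zinc finger proteins, which keeps the imprint through the loss of methylation in early embryos. In adult muscle, quiescent satellite cells do not replicate their DNA and enter the cell cycle after injury or in culture.

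Dnmt1 and Uhrf1 are known as genes of the S phase, when DNA is copied, and many such genes carry sites for E2F factors close to their start. For that reason the 250 bases before 1 of their listed transcript starts are shown, from RefSeq annotation of mouse assembly GRCm38.p6, with a match to an E2F-type motif in capitals. These were the 2 of the 19 listed promoters of the 10 genes that held a match. Dnmt1 lies on chromosome 9, and its stretch is chr9:20952624-20952873 on the minus strand. Uhrf1 lies on chromosome 17, and its stretch is chr17:56304063-56304312 on the plus strand.
Dnmt1: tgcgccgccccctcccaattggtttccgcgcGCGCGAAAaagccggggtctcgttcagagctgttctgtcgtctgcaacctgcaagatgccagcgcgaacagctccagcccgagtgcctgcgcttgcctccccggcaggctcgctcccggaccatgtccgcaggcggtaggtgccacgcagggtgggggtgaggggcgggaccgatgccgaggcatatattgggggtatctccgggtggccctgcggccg
Uhrf1: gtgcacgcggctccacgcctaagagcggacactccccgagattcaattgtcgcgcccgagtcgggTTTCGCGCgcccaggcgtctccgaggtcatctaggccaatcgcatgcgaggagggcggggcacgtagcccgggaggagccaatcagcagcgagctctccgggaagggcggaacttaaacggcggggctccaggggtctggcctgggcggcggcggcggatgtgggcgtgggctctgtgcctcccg

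The motifs searched on both strands were TTTCCCGC, TTTGGCGC, TTTCGCGC and TTTGCCGC. In the Dnmt1 stretch the match was GCGCGAAA, the reverse complement of TTTCGCGC, and started at base -219 from that start. Another match lay at base 34 after that start. In the Uhrf1 stretch TTTCGCGC started at base -185. Both stretches lie within the span of their gene, downstream of other listed starts. The promoters of those other starts held 0 matches (chr9:20952930-20953229 and chr9:20959839-20960138 for Dnmt1, chr17:56303087-56303386 for Uhrf1). Any of the 4 motifs was found in 583 of 18235 genes with a listed promoter (3.2%), in 2 of the 10 genes described here, and in 5 of the 12 genes of an S phase list that had a listed promoter. A match is a run of letters, and binding was not measured in these data.

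The libraries held between 11930961 and 21146632 estimated counts, and 3 counts, the limit that a count of 0 allows, corresponded to between 0.141 and 0.252 CPM (counts per 1000000, scaled by the TMM method). This limit covers counting error only. Library SF1 stood apart from the rest, since 88.6% of the listed genes had a count there, against 61.7% to 71.9% in the other 7 libraries. The satellite and muscle markers Pax7, Myod1 and Des were above 0 in all 8 libraries, and the summed CPM of 8 myogenic markers was 1357 to 1690 in TF, 2702 to 2754 in TE, 2008 to 2590 in SF and 3752 to 4207 in SE. At the thresholds given below, 5 of the 8 rose and 3 fell in TE versus TF, and 3 rose and 3 fell in SE versus SF. Pax7 (log2 fold changes -1.49 and -1.38), Myf5 (-3.33 and -3.86) and Vcam1 (-2.88 and -1.90) fell in both. Des (1.44 and 1.01), Cdh15 (0.94 and 0.73) and Chrna1 (2.93 and 4.94) rose in both. Markers of other cell types were present in the fresh groups. The summed CPM of 6 fibro-adipogenic markers was 1785 to 1838 in TF and 1025 to 1675 in SF against 2.39 to 6.71 in TE and 7.26 to 7.73 in SE, and that of 6 endothelial markers was 72.4 to 260 in TF and 282 to 360 in SF against 0.467 to 2.22 in the expanded groups, where Kdr, Emcn and Tie1 were at 0 in all 4 libraries. Of 7 haematopoietic markers the sum was 31.5 to 350 in TF, 25.9 to 26.9 in SF and 0.756 to 6.52 in the expanded groups. Within TF these markers were higher in TF1 than in TF2, except Cd3e (0 and 0.0798 CPM), with Lyz2 at 190 and 11.1 and Ptprc at 50 and 6.38. All 6 endothelial markers were also higher in TF1, with Pecam1 at 55 and 5.5. The sum of 5 pericyte and smooth muscle markers was 986 to 1165 in TF, 1573 to 1670 in SF and 243 to 257 in the expanded groups, that of 6 Schwann and neural markers was 77.5 to 90.5 in TF, 252 to 283 in SF and 10.6 to 12.4 in the expanded groups, and that of 8 pluripotency markers was at most 31.5 in any library. Notch3 made up most of the pericyte and smooth muscle sum, at 600 and 867 CPM in TF and 836 and 997 in SF. It was at 217 and 212 in TE and 173 and 155 in SE. Rgs5 was at 0 in TE and at 62.2 and 65.6 in SE, and Kcnj8 was at 0 in TE and SE. Each difference between fresh and expanded cells below moved with the markers of other cell types, and their part in it was not tested. In bulk RNA, fewer cells of a type and less RNA per cell cannot be told apart.

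**Figure D1:**
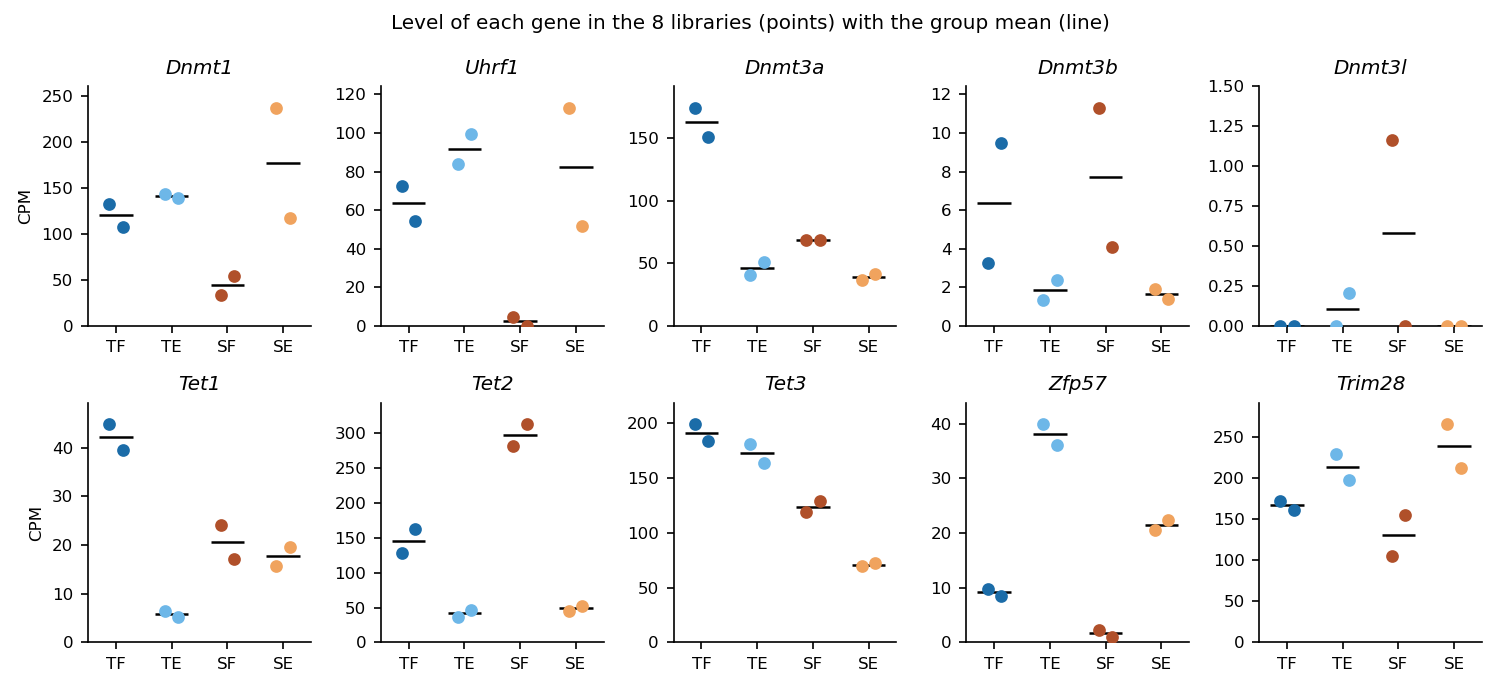
CPM of each of the 10 genes (y axis, a separate linear scale per panel) in the 8 libraries, grouped as TF, TE, SF and SE, with 1 point per library and a line at the mean of the 2 replicates. Dnmt1 and Uhrf1 were lowest in SF, Dnmt3a and Tet1 highest in TF, Tet2 highest in SF, and Zfp57 higher in the expanded than in the fresh group of each origin.

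Culture of satellite cells (SE versus SF) was accompanied by higher RNA of the maintenance pair and of the imprint pair and by lower RNA of Dnmt3a, Tet2 and Tet3. The test was edgeR's quasi-likelihood test over all 17582 genes in 1 fit of the 4 groups, and a gene was called at an adjusted p (Benjamini-Hochberg) below 0.05 and a fold change above 1.25. In this comparison 7 of the 9 tested genes were called, beside 40.7% of all genes tested, with 4 higher (20.9% of all genes) and 3 lower (19.8%). Culture of teratoma-derived cells (TE versus TF) was accompanied by lower Dnmt3a, Tet1 and Tet2 and by higher Zfp57, so that 4 of 9 were called, beside 26.1% of all genes, with 1 higher (9.86% of all genes) and 3 lower (16.2%). The 2 libraries of one group did not overlap with those of the other for 8 of 9 genes in SE versus SF, beside 72.4% of all genes, and for 9 of 9 in TE versus TF, beside 69.6%. The median log2 fold change of the 9 genes was -0.223 in SE versus SF, where it was -0.234 over all genes, and -0.153 in TE versus TF, where it was -0.176 over all genes. The calls went in both directions around a median close to that of all genes.

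**Figure D2:**
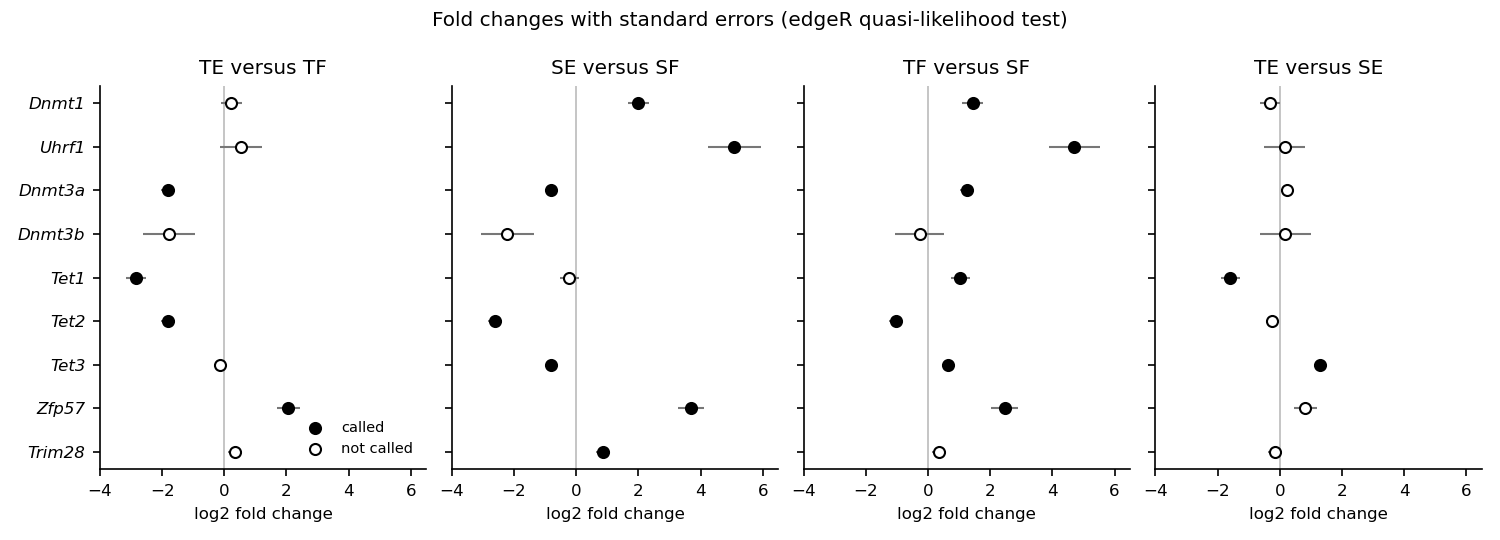
Log2 fold changes (x axis) of the 9 tested genes with their standard errors (bars) in 4 comparisons, each named for the first group over the second, with filled points for genes that were called. In TE versus SE the called genes were Tet1 and Tet3, beside 7.21% of all genes. In SE versus SF 7 genes were called, beside 40.7% of all genes, and in TF versus SF 7, beside 24.2%.

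Dnmt1 (chr9:20907209-20959888, minus strand, GRCm38), the maintenance methyltransferase, was at 133 and 108 CPM in TF, 143 and 139 in TE, 34 and 54.6 in SF, and 237 and 117 in SE. The SF libraries were the lowest of the 8 and did not overlap with any other group, and the SE replicates differed by 2.02-fold. Dnmt1 rose in SE versus SF by 3.99-fold (log2 fold change 2.00, SE 0.34, adjusted p = 0.00139). Without SE1 the log2 fold change was 1.41 (adjusted p = 0.000765), and without SF1 it was 1.70 (adjusted p = 0.0126). The TE versus TF value was 0.23 (SE 0.33, adjusted p = 0.635) and was not called. The change with culture differed between origins by -1.76 on the log2 scale (SE 0.47, adjusted p = 0.034 in the interaction test), a call that was lost in 4 of 13 alternatives, namely without TF1 (-1.60, adjusted p = 0.0738), TE1 (-1.77, adjusted p = 0.0748), TE2 (-1.73, adjusted p = 0.0778) or SF1 (-1.44, adjusted p = 0.0934). Without SE1 it was -1.15 (adjusted p = 0.0433).

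Uhrf1 (chr17:56303321-56323486, plus strand), which recruits Dnmt1, was at 72.7 and 54.3 CPM in TF, 84.1 and 99.3 in TE, 4.72 and 0.202 in SF, and 113 and 51.9 in SE. Both SF libraries lay far below the other 6, and they rested on 65 and 3 counts. Uhrf1 rose in SE versus SF by 33.6-fold (log2 5.09, SE 0.84, adjusted p = 0.00112) and was higher in TF than in SF by 25.8-fold (log2 4.71, adjusted p = 0.00363). These sizes depended on library SF1, which holds 65 of the 68 counts of the group. Set against SF2 alone, the SE mean was 409 times as high, with a 95% counting interval of 140 to 1985, and the TF mean was 315 times as high, with an interval of 108 to 1526. Without SF1 the fitted log2 fold change was 8.63 in SE versus SF (adjusted p = 0.000134) and 8.23 in TF versus SF (adjusted p = 0.000822). Its log2 fold change in TE versus TF was 0.53 (SE 0.67, adjusted p = 0.593), and the interaction was -4.56 (SE 1.04, adjusted p = 0.0185).

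Dnmt1 and Uhrf1 were read against a list of 16 proliferation genes, written with the earlier results of these data known. Their summed CPM was 1089 and 1185 in TF, 1365 and 1339 in TE, 419 and 237 in SF, and 2333 and 1119 in SE. The order of the libraries in this sum resembled that of Dnmt1 and Uhrf1 in that SF lay lowest and SE1 highest. The proliferation marker Mki67 was at 375 and 410 CPM in TF, 467 and 386 in TE, 13.1 and 13.9 in SF, and 692 and 278 in SE. The first SE replicate exceeded the second by 2.09-fold in the 16-gene sum, 2.49-fold in Mki67, 2.02-fold in Dnmt1 and 2.19-fold in Uhrf1, and by 1.09-fold in Zfp57 and 1.25-fold in Trim28. Per 1000 CPM of the 16 genes, Dnmt1 was at 122 and 91.1 in TF, 105 and 104 in TE, 81.2 and 230 in SF, and 101 and 104 in SE. On this scale the groups overlapped, but the SF values depended on Tyms, thymidylate synthase, which made up 233 of the 419 CPM in SF1 and 41.1 of the 237 in SF2. Without Tyms, Dnmt1 per 1000 CPM of the other 15 genes was at 183 and 279 in SF, above the 94.6 to 124 of the other 6 libraries, and Uhrf1 was at 25.4 and 1.03 in SF, below the 47.4 to 75.4 of the others. Uhrf1 on the same scale was at 66.8 and 45.9 in TF, 61.6 and 74.2 in TE, 11.3 and 0.852 in SF, and 48.6 and 46.4 in SE, and SF was the lowest group, with or without Tyms. No test was made on these ratios.

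**Figure D3:**
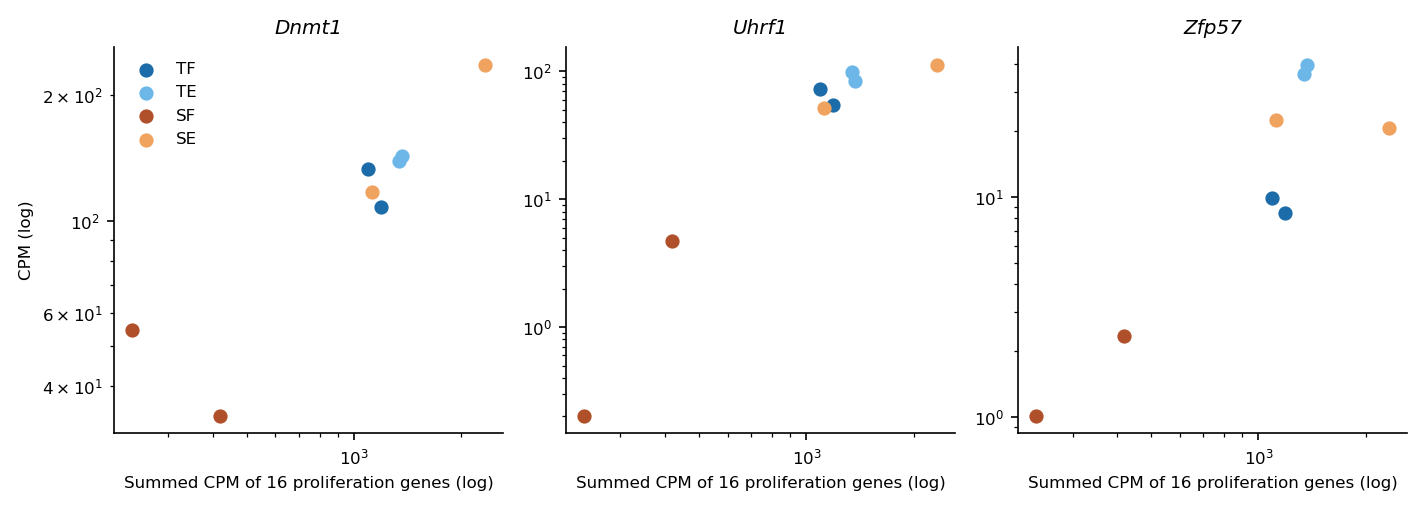
CPM of Dnmt1, Uhrf1 and Zfp57 (y axes, log scale) against the summed CPM of 16 proliferation genes (x axis, log scale) in the 8 libraries, 1 point each. The SF libraries lay lowest on both axes, and Zfp57 was higher in TE (36.2 and 39.9) than in TF (8.46 and 9.84) where the sums were 1089 to 1365.

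Of the 16 genes, 14 rose and 1 fell in SE versus SF, with Mki67 at a log2 fold change of 5.17 (adjusted p = 1.98e-05), the DNA replication factor Gins2 at 5.67 (adjusted p = 0.00124), the topoisomerase Top2a at 5.08 (adjusted p = 1.79e-05) and the cyclin Ccna2 at 4.55 (adjusted p = 2.07e-05). The gene that fell was Tyms at -2.08 (adjusted p = 0.032). Among all genes 20.9% rose and 19.8% fell in SE versus SF, and 9.86% rose in TE versus TF. Of the same list, 1 of 16 was called in TE versus TF, Rrm1, a subunit of ribonucleotide reductase, at 1.30 (adjusted p = 0.00231). In TF versus SF 11 of 16 were higher (15.1% of all genes) and 0 lower (9.13%). Without SF1 the count in SE versus SF was 13 higher and 0 lower, and without SE1 it was 11 higher and 1 lower.

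Among the 9 other genes that act with Dnmt1 and Uhrf1 at replication forks or on half-methylated DNA, 4 rose in SE versus SF. These were the chromatin remodeler Hells at 3.63 (adjusted p = 0.00196), the DNA ligase Lig1 at 2.54 (adjusted p = 0.000643), Cdca7, a partner of Hells, at 2.08 (adjusted p = 0.0353), and the histone deacetylase Hdac2 at 1.40 (adjusted p = 0.000395). Hells was at 2.47 and 2.29 CPM in SF and at 49.2 and 9.78 in SE, where the replicates differed by 5.03-fold. A single gene of the 9 was called in TE versus TF, Dmap1, a protein that binds Dnmt1, at 1.35 (adjusted p = 0.0319). Beside these, 20.9% of all genes rose in SE versus SF, 9.86% rose in TE versus TF and 9.62% were lower in the interaction. The interaction was negative and called for Hells at -3.39 (adjusted p = 0.0282), Lig1 at -3.12 (adjusted p = 0.00423) and Hdac2 at -0.99 (adjusted p = 0.037).

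Dnmt3a (chr12:3806007-3914443, plus strand), a de novo methyltransferase, was at 174 and 151 CPM in TF, 41 and 51.1 in TE, 68.9 and 68.4 in SF, and 36.3 and 41.6 in SE. The TF libraries were the highest, the SF libraries were next, and the TE and SE libraries overlapped. Dnmt3a fell with culture in both origins, in TE to 0.283 of its TF level (log2 -1.82, SE 0.20, adjusted p = 0.000174) and in SE to 0.568 of its SF level (log2 -0.82, SE 0.19, adjusted p = 0.00841). The fall was larger in the teratoma-derived cells (interaction -1.0, SE 0.27, adjusted p = 0.0379), and this difference was no longer called in 10 of 13 alternative settings, without SF1 among them (-0.98, adjusted p = 0.0731). Between fresh cells Dnmt3a was 2.37-fold higher in TF than in SF (log2 1.24, adjusted p = 0.0021), also without SF1 (1.23, adjusted p = 0.0123).

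Dnmt3b (chr2:153649450-153687730, plus strand), the other de novo methyltransferase, was at 3.28 and 9.49 CPM in TF, 1.36 and 2.39 in TE, 11.3 and 4.11 in SF, and 1.93 and 1.37 in SE. Every fresh library lay above every expanded one, while the replicates differed by 2.89-fold in TF and 2.74-fold in SF. It was not called in any comparison of the main fit. The log2 fold change was -1.77 (SE 0.83, adjusted p = 0.146) in TE versus TF and -2.21 (SE 0.84, adjusted p = 0.0607) in SE versus SF. The latter result changed in 5 of 14 alternatives, and it was called with DESeq2 (adjusted p = 0.0155). In TE versus SF the value was -2.03 (adjusted p = 0.0712), and the result changed in 3 of 14.

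Dnmt3l (chr10:78041947-78063622, plus strand), the cofactor without catalytic activity, had 16 counts in SF1, 4 in TE2 and 0 in the other 6 libraries. It did not pass the filter and was not tested. Its 16 counts were in the library with the broad detection of genes.

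Tet1 (chr10:62804570-62908996, minus strand), the Tet enzyme known from pluripotent and germ cells, was at 44.8 and 39.6 CPM in TF, 6.51 and 5.19 in TE, 24.1 and 17.1 in SF, and 15.7 and 19.6 in SE. TF was highest and TE lowest without overlap, and SF and SE overlapped. Tet1 fell in TE to 0.138 of its TF level (log2 -2.85, SE 0.32, adjusted p = 0.000216). In SE versus SF the log2 fold change was -0.22 (SE 0.30, adjusted p = 0.567), and the interaction of -2.63 (SE 0.43, adjusted p = 0.00416) was called in all 13 alternatives. Tet1 was also lower in TE than in SE (log2 -1.59, SE 0.31, adjusted p = 0.0145), a call that was lost without TE1 (-1.75, adjusted p = 0.0622) or without TE2 (-1.43, adjusted p = 0.133). In TF versus SF it was higher by 1.04 (adjusted p = 0.0334), which was called in 5 of 14 alternatives.

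Apart from Sox2, the pluripotency genes measured beside Tet1 were at most 8.65 CPM in any library. Pou5f1 was at 0.673 CPM in TF1, 0.0727 in SF1 and 0 in the other 6 libraries. Nanog was at 1.6 and 0 CPM in TF, 0.605 and 0.0519 in TE, 8.65 and 7.54 in SF, and 0.189 and 0.972 in SE, and Esrrb was highest in SE, at 3.91 and 2.63. Sox2, which neural cells also express, was at 22.4 and 13.6 CPM in TF and at 0 in the 4 expanded libraries. It was called in TE versus TF (log2 -11.20, adjusted p = 0.000681) and in TF versus SF (4.66, adjusted p = 0.00712). The 3 genes Nanog, Esrrb and Sox2 thus had different orders of the groups. Zfp42, Tdgf1, Dppa5a and Utf1 were highest in TF1, at 1.26, 1.77, 0.841 and 0.841 CPM, and at most 0.0798 in TF2. The part of these pluripotency genes in the level of Tet1 was not tested.

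Tet2 (chr3:133463679-133545139, minus strand) was at 129 and 163 CPM in TF, 36.2 and 47.2 in TE, 282 and 313 in SF, and 45.8 and 52.5 in SE. The SF libraries were highest, the TF libraries next, and the expanded groups overlapped. Tet2 fell in TE to 0.285 of its TF level (log2 -1.81, SE 0.21, adjusted p = 0.000265) and in SE to 0.165 of its SF level (log2 -2.60, SE 0.22, adjusted p = 2.34e-05), and both were called in all 14 alternatives. The interaction of 0.79 (adjusted p = 0.106) was not called, a result that changed in 1 of 13 alternatives. In the fresh cells Tet2 was lower in TF than in SF (log2 -1.03, adjusted p = 0.00702), a call that was lost without TF1 (-0.86, adjusted p = 0.0762).

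Tet3 (chr6:83362373-83459084, minus strand) was at 199 and 184 CPM in TF, 181 and 164 in TE, 119 and 129 in SF, and 69.3 and 72.3 in SE. All teratoma-derived libraries lay above all satellite cell libraries, and SE was lowest. Tet3 fell in SE to 0.573 of its SF level (log2 -0.80, SE 0.17, adjusted p = 0.00456), and in TE versus TF the log2 fold change was -0.15 (SE 0.17, adjusted p = 0.534). The interaction of 0.65 (adjusted p = 0.105) was not called, a result that changed in 2 of 13 alternatives. Between expanded cells Tet3 was 2.43-fold higher in TE than in SE (log2 1.28, SE 0.17, adjusted p = 0.00222), called in all 14 alternatives. Tet3 lies on chromosome 6, where the median log2 fold change of TE versus SE over 783 genes was 0.47, against -0.02 over all genes with a mean of at least 1 CPM, and that of TF versus SF was 0.66 against 0.16. The chromosome 6 median was 0.67 against 0.02 in TF versus SE and 0.18 against -0.03 in TE versus SF. With culture it was -0.29 against 0.01 in SE versus SF and -0.30 against -0.07 in TE versus TF. In the interaction it was -0.21 against -0.22. The part of this chromosome-wide shift in the Tet3 results was not tested.

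The makeup of the families was read per kb of the longest coding transcript in GENCODE M21. This scale sets levels of different genes side by side only as far as that transcript is the one expressed. The members have from 1 (Trim28) to 13 (Dnmt3a) annotated coding transcripts, and which of them were expressed was not examined. Tet3 took 51.5% and 45.1% of the summed CPM per kb of the 3 Tet genes in TF, 79% and 73.2% in TE, 25.1% and 25% in SF, and 51.1% and 48.4% in SE. Tet2 took 39.7% and 47.5% in TF, 18.8% and 25.1% in TE, 71% and 72.4% in SF, and 40.1% and 41.7% in SE. Tet2 was thus the most abundant Tet transcript in SF and Tet3 in TE, and Tet1 took at most 9.92% in any library. The sum of the 3 genes was 35.5 and 37.3 CPM per kb in TF, 21 and 20.5 in TE, 43.3 and 47.1 in SF, and 12.4 and 13.7 in SE. Each expanded library lay below each fresh library of either origin.

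Within the Dnmt family, Dnmt1 took 54.6% and 50.8% of the summed CPM per kb in TF, 84.3% and 80% in TE, 35.9% and 53.7% in SF, and 90.6% and 81.2% in SE. The ratio of Dnmt1 to Dnmt3a per kb was 1.25 and 1.18 in TF, 5.77 and 4.5 in TE, 0.815 and 1.32 in SF, and 10.7 and 4.63 in SE. All 4 expanded libraries lay above all 4 fresh ones in this ratio. In TE versus TF only the Dnmt3a term of the ratio was called, and in SE versus SF both terms were. No test was made on these ratios.

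**Figure D4:**
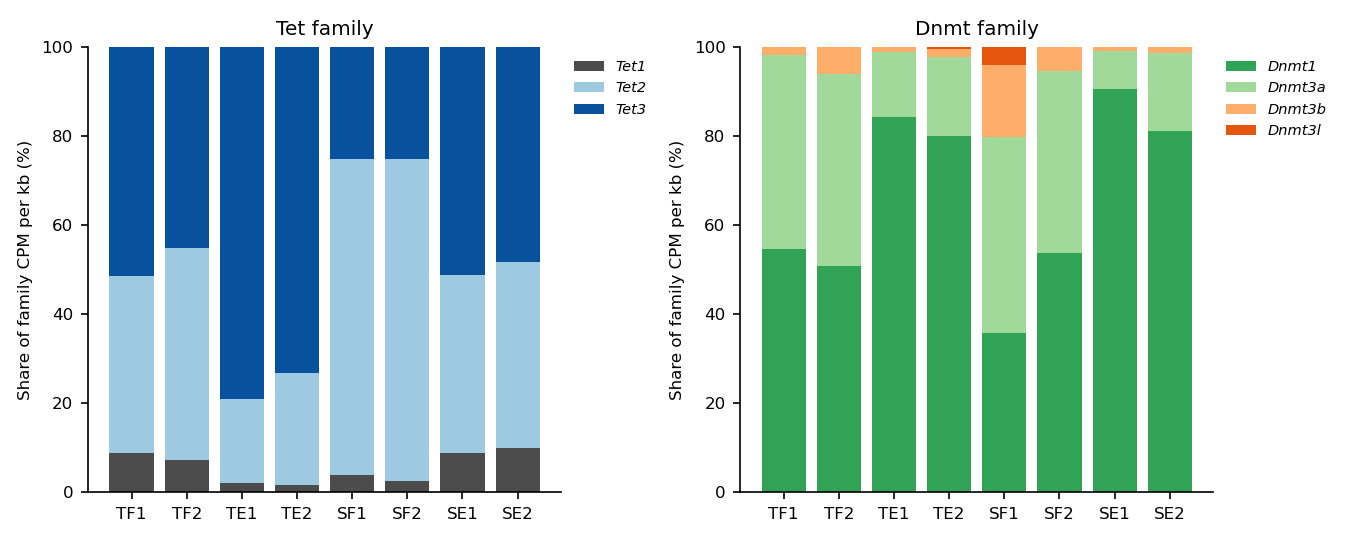
Share of the summed CPM per kb of the Tet family (left) and the Dnmt family (right) taken by each gene (y axis, percent) in each library (bars). Tet3 took most of the Tet sum in TE and Tet2 in SF, and Dnmt1 took at least 80% of the Dnmt sum in the 4 expanded libraries.

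Zfp57 (chr17:37001163-37010635, plus strand), the zinc finger protein of imprinted regions, was at 9.84 and 8.46 CPM in TF, 39.9 and 36.2 in TE, 2.33 and 1.01 in SF, and 20.6 and 22.4 in SE. The groups did not overlap with one another, and their order was TE, SE, TF and SF from high to low. Zfp57 rose with culture in both origins, by 4.16-fold in TE versus TF (log2 2.06, SE 0.38, adjusted p = 0.00379) and by 12.9-fold in SE versus SF (log2 3.69, SE 0.43, adjusted p = 0.000138), and both were called in all 14 alternatives. The SF level rested on 32 and 15 counts, and without SF1 the log2 fold change in SE versus SF was 4.40 (adjusted p = 0.00021). The interaction was -1.63 (adjusted p = 0.0775) and was called without SF1 (-2.32, adjusted p = 0.0178). Zfp57 was higher in TF than in SF (log2 2.46, adjusted p = 0.003), which was not called with only these 2 groups in the fit (2.35, adjusted p = 0.0678), while TE versus SE, at 0.82 (SE 0.37, adjusted p = 0.252), was not called although the libraries did not overlap.

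Trim28 (chr7:12999114-13031035, plus strand), which Zfp57 and other KRAB zinc finger proteins recruit, was at 173 and 162 CPM in TF, 230 and 198 in TE, 106 and 156 in SF, and 266 and 213 in SE. The expanded libraries lay above the fresh libraries of both origins, and TE and SE overlapped. Trim28 rose in SE versus SF by 1.82-fold (log2 0.86, SE 0.22, adjusted p = 0.0128), a call that was lost without SF1 (0.61, adjusted p = 0.0659). The TE versus TF value was 0.35 (adjusted p = 0.265). Per kb, Zfp57 was at 7.11% and 6.54% of Trim28 in TF, 21.7% and 22.9% in TE, 2.73% and 0.808% in SF, and 9.69% and 13.2% in SE.

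Of 8 other genes of the Trim28 corepressor complex, 7 rose in SE versus SF (20.9% of all genes) and 0 fell (19.8%). The largest changes were in the HP1 genes that bind methylated histone H3, Cbx5 at 2.23 (adjusted p = 2.79e-05) and Cbx3 at 1.70 (adjusted p = 0.000273), in the chromatin remodeler Smarcad1 at 1.57 (adjusted p = 0.00121) and in Cbx1, another HP1 gene, at 1.28 (adjusted p = 0.000799). The count was 7 without SF1 as well. In TE versus TF 1 of 8 was called, Cbx5, which rose from 144 and 132 CPM to 394 and 370 (log2 1.47, adjusted p = 0.00044). In TF versus SF 7 of 8 were higher, and 6 without SF1. Cbx5 was thus called higher with culture in both origins, and Setdb1, the histone methyltransferase of the complex, was called higher in SE versus SF at 1.05 (adjusted p = 0.00365). Of all genes, 9.86% rose in TE versus TF and 15.1% were higher in TF versus SF.

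**Figure D5:**
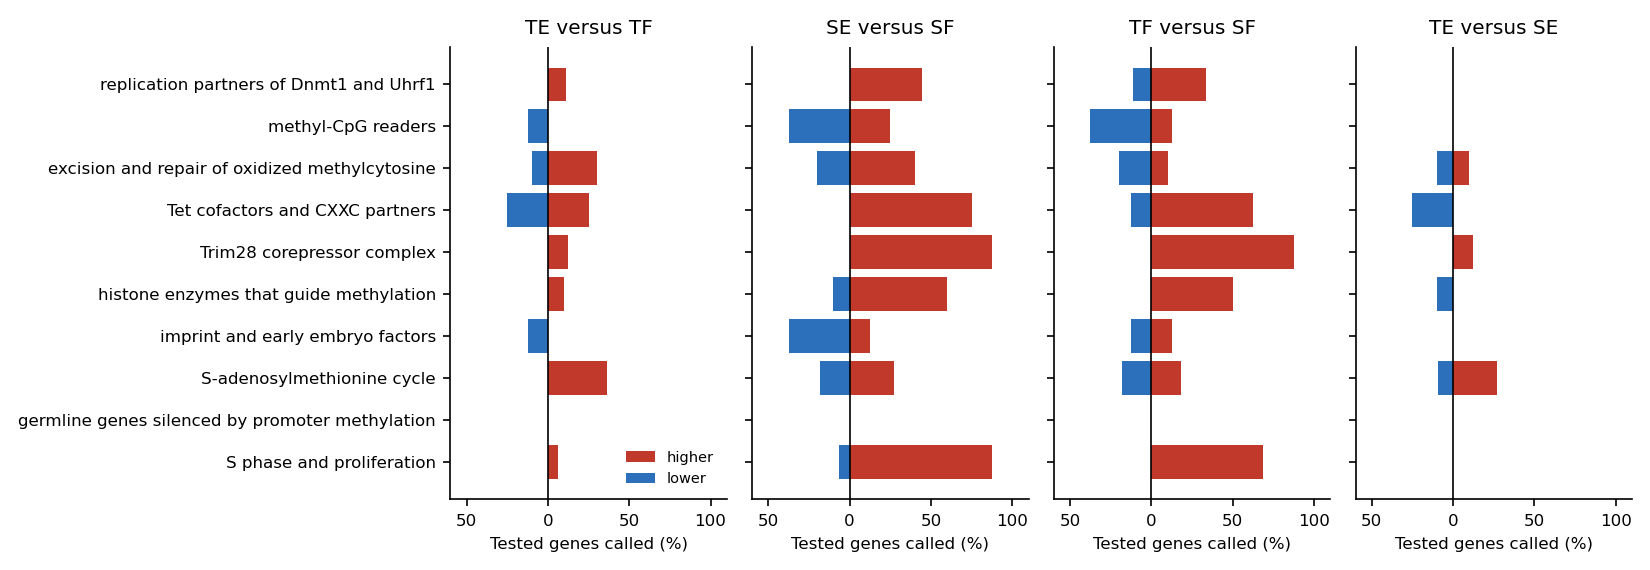
Share of the tested genes of each list (rows) that were called higher (right of 0) or lower (left of 0) in 4 comparisons, in percent (x axis). In SE versus SF most S phase genes (14 of 16) and Trim28 complex genes (7 of 8) were higher, beside 20.9% of all genes. In TE versus SE at most 4 genes of a list were called, beside 7.21% of all genes. Of the 11 S-adenosylmethionine cycle genes, 3 were higher and 1 was lower in TE, beside 3.15% and 4.07% of all genes. The lower one was Ahcy (log2 -5.26), whose value by symbol is uncertain because of its copy Gm4737.

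Of 8 genes that supply or partner the Tet enzymes, 6 rose in SE versus SF, led by the zinc finger gene Cxxc5 at 2.48 (adjusted p = 0.000157) and by the isocitrate dehydrogenases, which make or use the 2-oxoglutarate that Tet enzymes need, Idh2 at 2.18 (adjusted p = 2.38e-05), Idh3a at 2.08 (adjusted p = 4.29e-05) and Idh1 at 1.45 (adjusted p = 0.00204). Without SF1 the count was 5. Among them, 2 rose and 2 fell in TE versus TF, namely Ogt, the O-GlcNAc transferase that binds Tet proteins, at 1.36 (adjusted p = 0.00289), Idh3a at 0.86 (adjusted p = 0.00891), Idh1 at -1.30 (adjusted p = 0.0058) and Idh2 at -0.55 (adjusted p = 0.0447). Idh1 and Idh2 were lower in TE than in SE, at -1.21 (adjusted p = 0.0229) and -0.91 (adjusted p = 0.0141). The shares of all genes were 20.9% higher in SE versus SF, 9.86% higher and 16.2% lower in TE versus TF, and 4.07% lower in TE versus SE.

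Of 10 genes that excise or repair oxidized methylcytosine, 3 rose and 1 fell in TE versus TF. Gadd45b, a stress-induced gene linked to demethylation, fell by 2.78 on the log2 scale (adjusted p = 0.00088), and the abasic site nuclease Apex1 rose by 1.76 (adjusted p = 0.0028), Gadd45a by 1.46 (adjusted p = 0.00149) and the ADP-ribose polymerase Parp1 by 0.67 (adjusted p = 0.0198). In SE versus SF 4 rose and 2 fell, with Gadd45b at -3.56 (adjusted p = 0.000149), Parp1 at 2.75 (adjusted p = 7.65e-06), Apex1 at 1.65 (adjusted p = 0.00228) and the uracil glycosylase Smug1 at 1.53 (adjusted p = 0.0201). Gadd45b was at 166 and 129 CPM in TF and 166 and 199 in SF, and at 21 and 22 in TE and 8.16 and 22.9 in SE. Over all genes, 9.86% rose and 16.2% fell in TE versus TF, and 20.9% rose and 19.8% fell in SE versus SF.

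Tdg, the glycosylase that removes oxidized methylcytosine, and Ahcy, the enzyme that clears S-adenosylhomocysteine, have close copies in the table, and their values by symbol are uncertain. Tdg had 98.5 and 33.9 estimated counts in TF, 111 and 118 in TE, 553 and 766 in SF, and 893 and 636 in SE. Its copy Gm9855 had 618 and 573 in TF, 1298 and 1194 in TE, 44.3 and 10.6 in SF, and 0 and 0 in SE. The sum of both was 60.3 and 48.4 CPM in TF, 71.1 and 68.1 in TE, 43.4 and 52.3 in SF, and 42.1 and 36.4 in SE. The counts thus lay on the copy in teratoma-derived cells and on Tdg in satellite cells, and the call of Tdg in TE versus SE (log2 -2.74, adjusted p = 0.00655) had the opposite direction to the difference in the sums. Ahcy showed a less complete split, with 39.1 and 0 counts in TF, 2.44 and 70.6 in TE, 518 and 914 in SF and 1858 and 1005 in SE. Its copy Gm4737 had 701 and 850 counts in TF, 1303 and 1201 in TE, 211 and 114 in SF, and 179 and 210 in SE. Their sum was 62.2 and 67.8 CPM in TF, 65.8 and 66 in TE, 53 and 69.2 in SF, and 96 and 69.5 in SE. These copies were looked up after the calls were seen.

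Of 11 genes of the S-adenosylmethionine cycle, which supplies the methyl groups, 4 rose in TE versus TF and 3 rose and 2 fell in SE versus SF. Among all genes 9.86% rose in TE versus TF, and 20.9% rose and 19.8% fell in SE versus SF. The mitochondrial serine hydroxymethyltransferase Shmt2 rose in both, at 2.54 (adjusted p = 1.57e-05) and 2.81 (adjusted p = 6.69e-06). Mat2a, the enzyme that makes S-adenosylmethionine, rose in TE versus TF at 0.81 (adjusted p = 0.0191) and fell in SE versus SF at -1.72 (adjusted p = 0.00022), with an interaction of 2.54 (adjusted p = 0.000849).

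Of 8 readers of methylated CG pairs, 2 rose (20.9% of all genes) and 3 fell (19.8%) in SE versus SF. Zbtb38 rose at 1.33 (adjusted p = 0.00261) and Mbd3, a subunit of a deacetylase complex, at 1.15 (adjusted p = 0.000901), while Zbtb4 fell at -1.36 (adjusted p = 0.000717) and Mbd1 at -1.02 (adjusted p = 0.0131). In TE versus TF 1 of 8 was called, Zbtb4 at -0.93 (adjusted p = 0.00924). There 9.86% of all genes rose and 16.2% fell. Among 10 histone enzymes that guide methylation, 6 rose and 1 fell in SE versus SF, with the H3K9 methyltransferases Suv39h1 at 1.99 (adjusted p = 0.00213) and Ehmt2 at 1.02 (adjusted p = 0.00177) among those that rose, and 1 was called in TE versus TF, Nsd2 at 0.74 (adjusted p = 0.0332). Without SF1 the 6 became 4.

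Of 9 further imprint and early embryo factors, 8 were tested. In SE versus SF 1 rose, Zfp445, the other zinc finger gene of imprinted regions, at 0.66 (adjusted p = 0.0217), and 3 fell, Kdm1b, a histone demethylase needed for maternal imprints, at -1.07 (adjusted p = 0.0474), Arid4b at -1.05 (adjusted p = 0.0037) and Arid4a at -1.01 (adjusted p = 0.00238). Without SF1 the counts were 0 and 2. The gene called in TE versus TF, 1 of 8, was Arid4a, at -0.81 (adjusted p = 0.0118). Zfp445 was at 51.4 and 55.7 CPM in SF and at 74.6 and 94.9 in SE. Beside these factors, 20.9% of all genes rose and 19.8% fell in SE versus SF, and 16.2% fell in TE versus TF.

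Germline genes that promoter methylation keeps silent in somatic cells were at low levels. Their summed CPM over 16 genes was 21.7 to 24.8 in TF, 4.89 to 10.2 in TE, 13.8 to 32.6 in SF and 5.99 to 7.43 in SE. Of the 10 tested, 0 were called by edgeR in TE versus TF and in SE versus SF, where 1 in each had an unadjusted p below 0.05 and DESeq2 called 1 lower in each. The highest mean over the 8 libraries was that of Brdt, at 9.92 and 7.1 CPM in TF, 1.01 and 3.43 in TE, 9.74 and 7.34 in SF, and 1.6 and 2.8 in SE.

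Origin in fresh cells was the comparison of TF with SF, in which 7 of 9 members were called beside 24.2% of all genes, 6 of them higher (15.1% of all genes) and 1 lower (9.13%), and the libraries of 8 of 9 did not overlap (64.8% of all genes). Uhrf1, Zfp57, Dnmt1, Dnmt3a, Tet1 and Tet3 were higher in TF and Tet2 was lower. The median log2 fold change of the 9 was 1.04, against 0.0799 over all genes. The call of Dnmt1 (log2 1.44, adjusted p = 0.0133) was lost without SF1 (1.12, adjusted p = 0.0864), and that of Tet3 (0.63, adjusted p = 0.0242) was lost in 8 of 14 alternatives, without TF1, TF2, TE1, TE2 or SF1 among them (adjusted p up to 0.18). SF also served as the control of SE versus SF, so the values for these genes in the 2 comparisons share those libraries, and likewise each group enters more than 1 of the comparisons.

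Origin in expanded cells, TE versus SE, gave 2 called members, Tet1 lower (4.07% of all genes were) and Tet3 higher (3.15%), beside 7.21% of all genes in either direction. The libraries of 3 of 9 genes did not overlap, beside 50.0% of all genes. The median of the 9 was 0.149 and that of all genes -0.00339. Libraries overlapped between TE and SE for Dnmt1, Uhrf1, Dnmt3a, Dnmt3b, Tet2 and Trim28. TF versus SE, in which the fresh teratoma-derived cells are set against expanded satellite cells, gave 5 called members beside 23.6% of all genes, 4 higher (14.5%) and 1 lower (9.16%), and the libraries of 7 of 9 did not overlap (63.8% of all genes). Dnmt3a was higher in TF by 2.06 on the log2 scale (adjusted p = 8.89e-05), Tet2 by 1.57 (adjusted p = 0.000597), Tet3 by 1.44 (adjusted p = 0.000306) and Tet1 by 1.26 (adjusted p = 0.0146), and Zfp57 was lower at -1.23 (adjusted p = 0.0403). The call of Zfp57 was lost in 7 of 14 alternatives (adjusted p up to 0.152), without TF1, TF2, TE1, TE2, SE1 or SE2 among them, and that of Tet1 in 2 of 14, without TF1 (1.16, adjusted p = 0.0876) or SE1 (1.09, adjusted p = 0.0745). TE versus SF gave 8 called members beside 46.6% of all genes, 5 higher (23.0%) and 3 lower (23.6%), and the libraries of 9 of 9 did not overlap (77.9% of all genes), with Uhrf1 at 5.24 (adjusted p = 0.000863), Zfp57 at 4.51 (adjusted p = 4.85e-05) and Tet2 at -2.84 (adjusted p = 1.38e-05). Of the 8 calls, that of Tet3 (0.48, adjusted p = 0.042) was lost in 11 of 14 alternatives, that of Dnmt3a (-0.58, adjusted p = 0.0344) in 7 and that of Trim28 (0.70, adjusted p = 0.0281) in 6. Leaving out any 1 TF, TE or SF library ended the calls of Tet3 and Dnmt3a (adjusted p up to 0.278 and 0.35), and leaving out TE1, TE2 or SF1 ended that of Trim28 (up to 0.171). The interaction gave 4 called members beside 14.3% of all genes, 4 lower (9.62%) and 0 higher (4.70%).

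The genes whose pattern over the 8 libraries lay closest to each member were found by the root mean square distance of mean-centred log2 CPM, among 15196 genes. Closest to Dnmt1, whose own spread around its mean was 0.82, were Gnpda1 at 0.15, Gtpbp3 at 0.18 and Bzw2 at 0.18. Closest to Uhrf1, with a spread of 2.77, were the cell cycle genes Cdca3 at 0.34, Rad51ap1 at 0.43 and Melk at 0.45. Closest to Dnmt3a, with a spread of 0.80, were Npdc1 at 0.12, Arap1 at 0.13 and Fuca1 at 0.19. For Tet1, with a spread of 1.03, they were Hoxd8 at 0.25 and 1700025G04Rik and Lsr at 0.30. For Tet2, with a spread of 1.17, they were Atrnl1 at 0.19, Rfx2 at 0.20 and Crebrf at 0.21. For Tet3, with a spread of 0.56, they were Rhob at 0.16, Snx18 at 0.17 and Zfp384 at 0.19. For Trim28, with a spread of 0.38, they were Phf20, Ddx23 and Pabpc1 at 0.09, and for Dnmt3b, with a spread of 1.06, Gm15908 and Pla1a at 0.40 and Gm28043 at 0.41. For Zfp57, with a spread of 1.73, they were AI467606 at 0.18 and Zfp786 and Tspan9 at 0.34. The points share library, depth and culture state, and the distance is a description of these 8 libraries.

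Some of the members share sequence with other annotated transcripts. Of the 31-base words of the Uhrf1 transcripts in GENCODE M21, 24.2% also occur in other genes, mostly in Gm5648, and of those of Dnmt3b 13.5% occur in Dnmt3c. Neither Gm5648 nor Dnmt3c had a row in the count table. In Dnmt3l and Zfp57 0 words were shared, and the other 6 genes shared at most 1.23%. The estimated counts were not whole for Tet1 in 8 libraries, for Tet2 in 6 and for Dnmt1 in 1, as when reads are divided between transcripts. They were whole in every library for the other members, Uhrf1 and Dnmt3b among them. The antisense genes Dnmt3aos and Dnmt3bos overlap Dnmt3a and Dnmt3b. Genes on the opposite strand also overlap Dnmt3l (Aire), Tet2 (Gm42567), Tet3 (B230319C09Rik) and Trim28 (Zbtb45). Dnmt3aos had at most 33 counts, in SE2, where Dnmt3a had 728. Whether the counting used strand was not given in the sources used here, although the library kit keeps it.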

How the data were processed

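Total RNA libraries were made with a strand-keeping kit for low input, from cells of 4 groups with 2 replicates each, grouped by the labels. The authors deposited 1 table of estimated counts per gene symbol, not normalized, and the submitters' processing notes name CASAVA, kallisto 0.44.0 and GRCm38 (mm10). How transcripts were summed to genes was not given in the sources used here. The share of whole values ran from 74.4% to 84.4% over the libraries (tolerance 1e-06), and 0 columns and 0 rows without a name were left out. The estimated counts were rounded, filtered with filterByExpr (17582 of 24980 genes passed) and scaled by TMM, and the quasi-likelihood test of edgeR was run in 1 fit of the 4 groups, with Benjamini-Hochberg adjustment over all genes tested. A gene was called at an adjusted p below 0.05 and a fold change above 1.25, the study's thresholds. The common dispersion was 0.233.

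CPM used TMM effective library sizes, and CPM per kb the longest coding transcript of GENCODE M21 on GRCm38, to which 98.21% of the symbols matched. All 10 members matched the RefSeq promoter table. The members and lists were chosen with earlier results of these data known. Genes named are the 10 members, up to 4 called genes of a list with the largest change, the 3 genes closest to a member, Mki67 and the marker genes; Tdg and Ahcy with their copies, Tyms, Zfp445, Brdt and Setdb1 were named after their values were seen. Libraries of a group are labelled biological replicates, and p-values measure the spread between them. Replicates varied beyond sampling noise in each group, so all 8 libraries were kept.

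Alternatives were median-ratio size factors, no filter, DESeq2, the ribosomal RNA precursor Rn45s left out, a fit of only the 2 groups compared, a replicate block and each library left out. The tools were edgeR 4.0.16, limma 3.58.1 and DESeq2 1.42.0 under R 4.3.3.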

Additional observations from a re-analysis of the deposited data

Results flagged for a closer look

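The effect of culture differed between teratoma-derived and satellite cells for 4 of the genes, by edgeR's test of the interaction (the log2 change TE versus TF minus that of SE versus SF). The difference was -1.76 for Dnmt1 (adjusted p = 0.034), -4.56 for Uhrf1 (adjusted p = 0.0185), -1.0 for Dnmt3a (adjusted p = 0.0379) and -2.63 for Tet1 (adjusted p = 0.00416). Dnmt1 and Uhrf1 rose with culture in satellite cells and were not called in teratoma-derived cells, Dnmt3a fell in both and more in teratoma-derived cells, and Tet1 fell in teratoma-derived cells and was not called in satellite cells. The call was lost in 4 of 13 alternatives for Dnmt1, in 10 of 13 for Dnmt3a and in 1 of 13 for Uhrf1, and in 0 of 13 for Tet1. Of the 16 proliferation genes, 9 were called lower in the interaction (9.62% of all genes) and 0 higher (4.70%). Their median was -2.84, against -0.18 over all genes. The part of proliferation in the results of Dnmt1 and Uhrf1 was not tested.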

How the results depend on the processing

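Of 37 calls of single genes over 7 comparisons, 22 were kept in every alternative run, and 0 changed direction. In TE versus TF all 4 calls held in all 14 alternatives, and in SE versus SF all but that of Trim28 did. Uhrf1 depended in size on SF1, and with each library left out in turn its log2 fold change ran from 4.15 to 8.63 in SE versus SF, from 3.76 to 8.23 in TF versus SF and from -8.07 to -3.61 in the interaction, where DESeq2 did not call it (-4.39, adjusted p = 0.0591). The number of members called in TF versus SF was 7, was 4 with only the 2 groups in the fit, and ran from 4 to 7 with a library left out. With a library left out the numbers ran from 4 to 4 in TE versus TF, 6 to 8 in SE versus SF, 1 to 2 in TE versus SE, 3 to 5 in TF versus SE, 5 to 8 in TE versus SF and 2 to 4 in the interaction. Values that were not called and changed sign with a library left out were those of Tet1 in SE versus SF (-0.43 to 0.04), Dnmt3b in TF versus SF (-1.22 to 0.62), Dnmt3b (-0.27 to 0.54), Dnmt1 (-0.74 to 0.28), Trim28 (-0.31 to 0.02) and Uhrf1 (-0.31 to 0.83) in TE versus SE, Dnmt1 (-0.98 to 0.02) and Uhrf1 (-0.84 to 0.27) in TF versus SE, and Dnmt3b in the interaction (-0.43 to 1.41). Median-ratio size factors shifted the median of all genes by -0.19 in SE versus SF, -0.16 in TF versus SF, -0.21 in TE versus SF and 0.14 in the interaction. Counts of called genes over all genes moved from 1268 to 2260 without the filter and 2122 with DESeq2 in TE versus SE, and with a library left out fell to 653 there, to 2739 from 4581 in TE versus TF, to 2639 from 4261 in TF versus SF and to 1467 from 2517 in the interaction. Replicate numbers did not pair the samples (correlations of the deviations between -0.0231 and 0.066), and with the replicate block the calls of Tet3 in TE versus SF (0.48, adjusted p = 0.0659) and of Dnmt3a in the interaction (-1.01, adjusted p = 0.0523) were lost, with 7 and 3 members called, and no other call changed. The fit of only 2 groups could not be made for the interaction. With 2 libraries a group, a gene at few counts, such as Dnmt3b, can differ several-fold without being called.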
